A study of Mus musculus with 6 samples.

Results

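Type I interferon response genes were followed in colonic group 2 innate lymphoid cells (ILC2s) of mice with and without colitis. The members were chosen by symbol from a list of 39 interferon-stimulated genes and their sensors and factors, leaving out the interferon-inducible GTPases and MHC genes. Of the 39 symbols, 38 were rows of the table of 23268 genes. Ddx58, the RIG-I gene, was not listed under that symbol. The table lists its current symbol, Rigi, whose values are given below but not counted among the 38. A mean of at least 1 FPKM (fragments scaled to gene length and to the library's total) over the 6 libraries was required for testing, and 36 members met it.

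ILC2s are tissue-resident lymphocytes without an antigen receptor, known for making type 2 cytokines. The colon donors were C57BL/6 mice, 6 to 8 weeks of age. The control group drank water, and the other group drank 3% dextran sulfate sodium (DSS), which injures the colonic epithelium, for 6 days. RNA was sequenced from 3 libraries per group, with 9962415 to 23119390 fragments per library. No transgene, knockout or other treatment is named in the labels. The labels do not say whether a library came from 1 mouse or from pooled mice, and p-values therefore reflect only how far these libraries scatter, which may be technical.

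Type I interferons bind a receptor made of IFNAR1 and IFNAR2, whose kinases JAK1 and TYK2 start the signal. The factor ISGF3, which contains STAT2 and IRF9, then binds the interferon-stimulated response element (ISRE) in the promoters of antiviral genes. Interferon gamma has its own receptor and acts on gamma-activated sites (GAS), and many promoters answer to both. Interferons are known for antiviral defence and for limiting ILC2 activity.

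The promoters show which members carry these letters close to their start. In RefSeq windows from 250 bases before to 50 bases after each gene start (build GRCm38.p6), 29 of the 38 members had an entry. The ISRE core was searched as GAAA, any 2 bases and GAAA again, on both strands, with overlapping matches allowed. It was found in 12 of the 29 members, or 41.4%, against 3.99% of 27025 genes. The form with CT between the GAAA blocks was found in 5 of the 29, against 0.263% of all genes, and is part of the first search. The GAS palindrome TTCNNNGAA was found in 9 of the 29, or 31.0%, against 9.55% of all genes. Because the members were listed as interferon-stimulated genes, a high share of such letters describes the list and is no result of the DSS comparison. The windows below are shown because they carry the clearest matches among the members described in the results. Capitals mark the ISRE core in the first 6 and the GAS palindrome in the last 2, each read 5′ to 3′ on the gene's own strand.
Isg15 (chr4:156200863-156200913, minus strand): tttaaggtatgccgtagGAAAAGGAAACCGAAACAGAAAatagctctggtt
Bst2 (chr8:71537572-71537622, minus strand): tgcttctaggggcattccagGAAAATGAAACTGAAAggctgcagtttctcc
Oas1a (chr5:120907526-120907570, minus strand): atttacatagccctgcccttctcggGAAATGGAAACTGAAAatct
Stat2 (chr10:128270258-128270308, plus strand): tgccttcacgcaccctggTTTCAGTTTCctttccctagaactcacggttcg
Ifit1 (chr19:34640769-34640829, plus strand): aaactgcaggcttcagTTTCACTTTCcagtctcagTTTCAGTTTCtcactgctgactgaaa
Ifit3 (chr19:34583359-34583429, plus strand): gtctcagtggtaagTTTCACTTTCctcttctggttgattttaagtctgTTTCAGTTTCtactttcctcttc
Irf1 (chr11:53769904-53769954, plus strand): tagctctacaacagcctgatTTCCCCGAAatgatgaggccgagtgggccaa
Samhd1 (chr2:157135296-157135346, minus strand): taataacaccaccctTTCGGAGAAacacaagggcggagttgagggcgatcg
In Bst2 a GAS palindrome, TTCCAGGAA, starts 136 bases before the gene start and overlaps the ISRE core.

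The libraries were not alike within groups. In DSS replicate 1, 12.5% of fragments came from cytosolic ribosomal protein genes, while the other 5 libraries held 5.97% to 8.47%. Olfactory receptor genes, whose role is in smell, averaged 0.962 FPKM in DSS replicate 3 and 0.583 in control replicate 3, against 0.0342 to 0.182 in the other 4 libraries. Control replicate 3 and DSS replicate 3 also had the fewest fragments. All 14 ILC2 markers were present in every library, but 12 had a lower mean log2 value in DSS, with a median log2 change of −0.52. In 7 of the 14 every DSS library lay below every control, among them Gata3 at 841 to 885 FPKM in the controls and 287 to 674 FPKM in DSS. One of them, the cytokine gene Il5, fell by 2.43 on the log2 scale (limma adjusted p = 0.000866). The part of this difference in the values below was not tested.

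The interferon response genes were already expressed in control ILC2s, with means from 0.438 FPKM for Ifi44 to 442 FPKM for Irf1, and more of them had a higher than a lower mean in DSS. No member passed the test across all genes (limma, adjusted p under 0.05), against 0.222% of the 12187 genes tested. Limma voom on the whole fragments recovered from the FPKM values also called 0 members. At an unadjusted p under 0.05 there were 9 members, all higher in DSS, against 3.57% of all genes higher and 5.42% lower. Of the 36 tested members, 23 had a higher mean log2 value in DSS and 13 a lower one, against 53.1% of all tested genes with a higher one. Their median log2 change was 0.12, and that of all tested genes was 0.03. In 9 members every DSS library lay above every control library, which held for 6.35% of all tested genes. In 1 member, Trim25, every DSS library lay below, which held for 9.6% of all tested genes. After median-of-ratios scaling 3 members lay above and 2 below, against 4.92% and 9.22% of all genes.

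**Figure D1:**
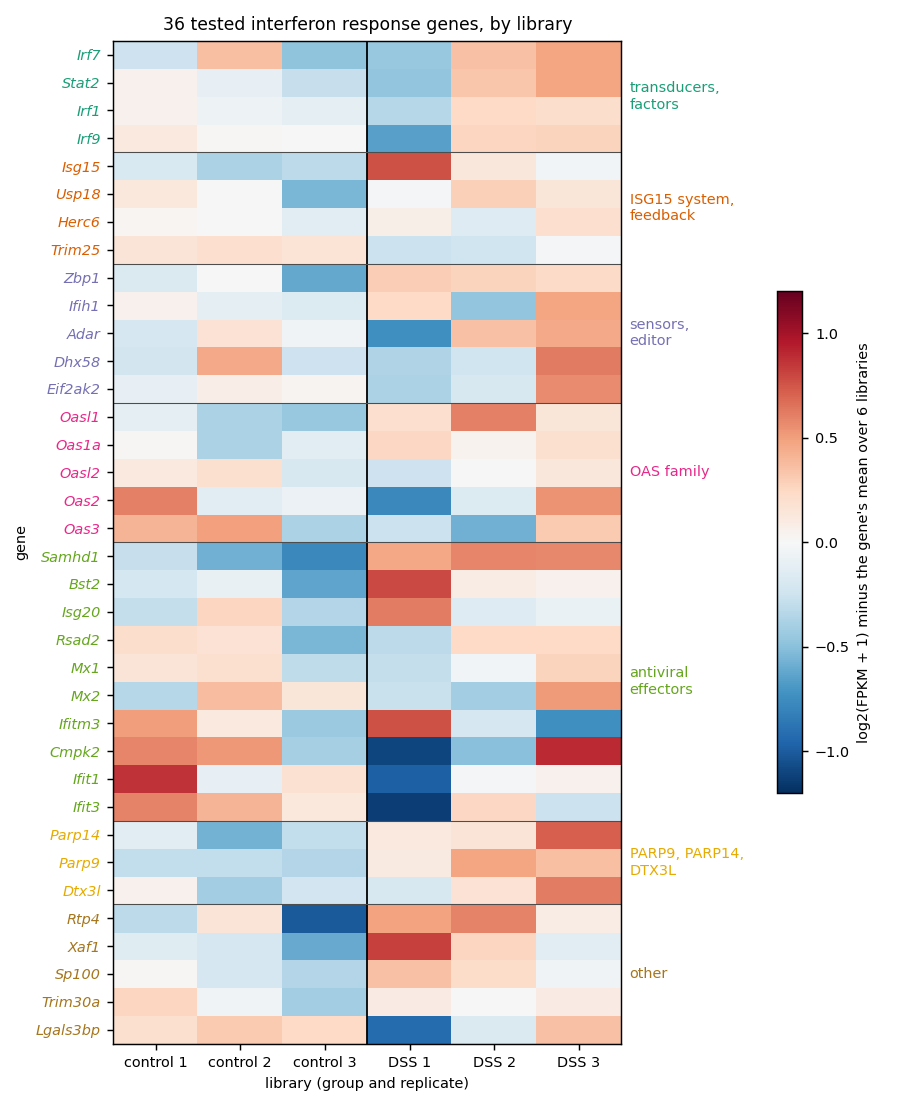
Each row is 1 of the 36 tested members, grouped by role, and each column is 1 library; colour gives log2(FPKM + 1) minus the gene's mean over the 6 libraries. Samhd1, Zbp1, Parp9 and Parp14 are above their mean in all 3 DSS libraries, while Ifit1, Ifit3 and Cmpk2 are lowest in DSS replicate 1.

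The transducers and transcription factors of the pathway were abundant and overlapped between the groups. A log2 change is the DSS mean less the control mean of log2(FPKM + 1), a scale on which weakly expressed genes move less than they do in FPKM. Where a pair of levels is given, the control comes first, each as the mean and SD of FPKM (n = 3). Irf1, a transcription factor induced by interferon gamma and type I interferons, had the highest level of all members per length. It measured 470.0, 434 and 421 FPKM in control replicates 1, 2 and 3, and 358, 533 and 525 FPKM in DSS replicates 1, 2 and 3. The lowest and the highest library were thus both DSS libraries, and the log2 change was 0.08 ± 0.23 (SE).

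Irf7, the factor that amplifies type I interferon production, measured 45.8, 70.6 and 38.8 FPKM in the controls and 39.7, 69.9 and 76.5 FPKM in DSS. The groups overlapped over nearly their whole range, with a log2 change of 0.25 ± 0.31 (SE). Stat2, the STAT particular to ISGF3, measured 24.8, 22.2 and 19.5 FPKM in the controls and 16.9, 30.3 and 33.5 FPKM in DSS. Irf9, which carries the DNA contact of ISGF3, measured 27.6, 25.5 and 25.3 FPKM in the controls and 15.7, 30.5 and 30.6 FPKM in DSS. Both genes had the same arrangement, with DSS replicate 1 below all controls and DSS replicates 2 and 3 above all of them. The log2 change of Stat2 was 0.22 ± 0.27 (SE), and that of Irf9 was −0.09 ± 0.27 (SE).

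Of the ISG15 modifier system and its regulators, Isg15 had separate groups. ISG15 is a ubiquitin-like protein that is attached to other proteins in the antiviral response. Isg15 measured 171, 149 and 156 FPKM in the controls and 331, 213 and 189.6 FPKM in DSS. DSS replicate 1 was far above the other DSS libraries, of which the lowest was close to the highest control. The mean went from 159 ± 11.3 to 244 ± 75.6, a ratio of 1.54, with a log2 change of 0.58 ± 0.24 SE (limma adjusted p = 0.5). Usp18, which removes ISG15 and blocks signalling at IFNAR2, measured 14.9 ± 3.66 and 18.0 ± 1.92 FPKM, and its groups overlapped. Herc6, the mouse ligase for ISG15, measured 6.51 ± 0.431 and 6.95 ± 0.977 FPKM. Trim25, a ubiquitin ligase that activates RIG-I, measured 14.7, 15.2 and 14.8 FPKM in the controls and 10.8, 11 and 13.0 FPKM in DSS. All DSS values lay below the narrow control range, with a log2 change of −0.34 ± 0.20 SE (limma adjusted p = 0.698).

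Among the sensors of viral nucleic acid, levels were highest for Zbp1, then for Rigi, and lower for the others. Zbp1, a sensor of Z-form nucleic acid that can start necroptosis, measured 26.3, 30.0 and 19.1 FPKM in the controls and 36.7, 36 and 35.1 FPKM in DSS. The DSS values were close together and above all controls, with a log2 change of 0.52 ± 0.22 SE (limma adjusted p = 0.497). The cytosolic RNA sensors of the RIG-I family overlapped between the groups. Rigi measured 18.2 ± 2.44 and 17.6 ± 6.84 FPKM, with its lowest value, 10 FPKM, in DSS replicate 1. Ifih1, the MDA5 gene, measured 3.20 ± 0.326 and 3.84 ± 1.51 FPKM, and Dhx58, the LGP2 gene, measured 4.38 ± 1.57 and 4.55 ± 2.22 FPKM. The RNA-activated kinase gene Eif2ak2 (PKR) and the RNA-editing enzyme gene Adar had log2 changes of 0.00 ± 0.31 (SE) and 0.05 ± 0.32 (SE). Adar measured 6.75, 9.08 and 7.67 FPKM in the controls and 4.35, 10.4 and 11.2 FPKM in DSS, the same arrangement as Stat2 and Irf9.

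The oligoadenylate synthetase family did not move as a unit. OAS enzymes make the second messenger that activates RNase L. Oasl1, known as a brake on the translation of Irf7, measured 5.39, 4.29 and 4.04 FPKM in the controls and 6.94, 9.50 and 6.63 FPKM in DSS. Its groups did not overlap, with a ratio of means of 1.68 and a log2 change of 0.63 ± 0.24 SE (limma adjusted p = 0.431). Oas1a measured 10, 7.36 and 8.98 FPKM in the controls and 11.9, 10.2 and 11.4 FPKM in DSS. Its separation was narrow, with a log2 change of 0.32 ± 0.21 SE (limma adjusted p = 0.739). Oas1a belongs to a cluster of near-identical Oas1 genes, between which the authors' counting could split reads. Oas3 measured 4.37, 4.70 and 2.10 FPKM in the controls and 2.39, 1.71 and 4.03 FPKM in DSS, with overlapping groups and a log2 change of −0.35 ± 0.36 (SE). Oas2 and Oasl2 also overlapped, with log2 changes of −0.27 and −0.08, and Oas2 rested on only 13 to 201 fragments per library.

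Among the antiviral effectors, Samhd1 had the highest statistic of all 36 members. SAMHD1 degrades deoxynucleotides and so restricts retroviruses and DNA viruses in cells that do not divide. Samhd1 (chromosome 2, mm10, 157097533 to 157135265) measured 141, 114 and 99.2 FPKM in the controls and 236, 256 and 254 FPKM in DSS. The DSS libraries were all far above the controls, and they included DSS replicate 1, which was low for other members. The mean went from 118 ± 21.1 to 249 ± 11.4, a ratio of 2.11, with a log2 change of 1.09 ± 0.20 SE. It did not pass over all genes (limma adjusted p = 0.0987). Without DSS replicate 1 it passed (log2 change 1.12 ± 0.15 SE, limma adjusted p = 0.00355), in a comparison where 3.39% of all genes passed. Over all alternatives its limma adjusted p ran from 0.00355 to 0.622 and its log2 change from 0.95 to 1.22.

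Bst2 (tetherin), which holds budding viruses at the cell surface, measured 80.7, 87.6 and 59.8 FPKM in the controls and 163, 99.5 and 96.9 FPKM in DSS. As for Isg15, DSS replicate 1 stood far above the others, and the other DSS values lay just above the controls. The log2 change was 0.62 ± 0.26 SE (limma adjusted p = 0.495). Isg20, an RNA exonuclease gene, measured 34.4, 50.6 and 33.0 FPKM in the controls and 65.4, 38.0 and 39.9 FPKM in DSS, again highest in DSS replicate 1. Ifitm3, whose protein blocks virus entry from endosomes, measured 101, 77.1 and 51.6 FPKM in the controls and 121, 61.3 and 42.2 FPKM in DSS. The Ifitm3 values spread widely within each group, and the group means were 76.6 ± 24.7 and 74.9 ± 41.2 FPKM.

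Ifit1 and Ifit3, whose proteins bind viral RNA and which are among the most inducible targets of ISGF3, had lower means in DSS. Ifit1 measured 29.3, 14.5 and 17.8 FPKM in the controls and 7.38, 15.3 and 16.2 FPKM in DSS. The highest control and the lowest DSS library set most of this difference, and the other 4 libraries lay between 14.5 and 17.8 FPKM. The log2 change was −0.64 ± 0.34 SE (limma adjusted p = 0.649). Ifit3 measured 6.74, 5.82 and 4.60 FPKM in the controls and 1.34, 5.10 and 3.29 FPKM in DSS, with a log2 change of −0.76 ± 0.36 SE (limma adjusted p = 0.587). One DSS library lay within the control range. Without DSS replicate 1 the log2 changes of Ifit1 and Ifit3 were −0.30 and −0.38. Ifit2 did not meet the level for testing and measured 0.712 ± 0.602 and 0.856 ± 0.366 FPKM (range 0.236 to 1.39), on 16 to 124 fragments. Ifit1 and Ifit3 lie in a cluster of related genes on chromosome 19, between which reads could be split.

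Mx1 and Mx2, dynamin-like GTPases that block viral replication, were weakly expressed. The Mx1 gene of most laboratory mouse strains is known to carry a deletion. Mx1 measured 1.96, 2.03 and 1.15 FPKM in the controls and 1.18, 1.6 and 2.19 FPKM in DSS, and Mx2 measured 3.35 ± 1.05 and 3.12 ± 1.5 FPKM. The groups overlapped for both genes. Rsad2 (viperin) and Cmpk2 are neighbouring genes whose products make an antiviral nucleotide, with starts 12752 bases apart. Rsad2 measured 8.41 ± 2.51 and 8.99 ± 2.05 FPKM. Cmpk2 measured 5.68, 5.37 and 2.38 FPKM in the controls and 1.08, 2.15 and 7.26 FPKM in DSS, so that the DSS group held both its lowest and its highest library.

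**Figure D2:**
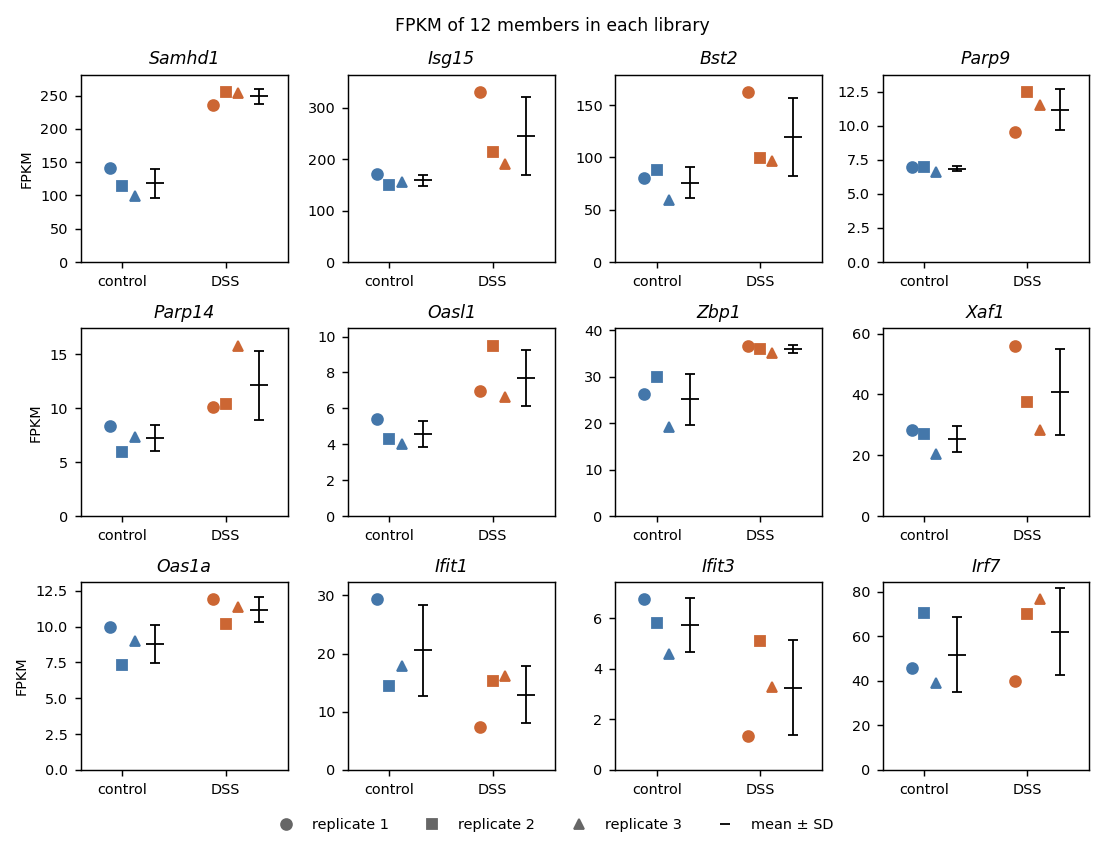
FPKM of 12 members in each library, with control libraries in blue, DSS libraries in orange, a marker shape for each replicate number, and black bars for mean ± SD (n = 3). The groups are apart for Samhd1 through Oas1a and overlap for Ifit1, Ifit3 and Irf7. DSS replicate 1 is the highest DSS point for Isg15, Bst2, Zbp1, Xaf1 and Oas1a. It is the lowest for Samhd1, Parp9, Parp14, Ifit1, Ifit3 and Irf7.

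PARP9, PARP14 and DTX3L form an ADP-ribosylation and ubiquitin ligase module of the interferon response, and the means of all 3 genes were higher in DSS. Parp9 measured 6.94, 6.96 and 6.64 FPKM in the controls and 9.53, 12.5 and 11.5 FPKM in DSS. The controls were almost equal and all DSS values lay above them, with a ratio of means of 1.63 and a log2 change of 0.63 ± 0.21 SE (limma adjusted p = 0.346). Parp14 measured 8.32, 5.91 and 7.35 FPKM in the controls and 10.1, 10.4 and 15.8 FPKM in DSS, with a log2 change of 0.66 ± 0.25 SE (limma adjusted p = 0.419). Dtx3l measured 7.65 ± 1.44 and 10.6 ± 3.24 FPKM, and DSS replicate 1, at 7.61, lay within the control range. Parp9 and Dtx3l are divergent genes on chromosome 16 whose starts are 681 bases apart and whose annotated exons share 458 bases. The library kit does not mark the strand, so fragments from those shared bases cannot be assigned to either gene. Parp9, Parp14 and Samhd1 were the 3 members whose DSS libraries stayed above all controls after median-of-ratios scaling.

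Of the 6 remaining members, Xaf1 had separate groups. Xaf1, a pro-apoptotic partner of XIAP, measured 28.3, 27.1 and 20.3 FPKM in the controls and 56.1, 37.6 and 28.4 FPKM in DSS. The separation rests on 28.4 against 28.3 FPKM, and the log2 change was 0.63 ± 0.27 SE (limma adjusted p = 0.527). Rtp4, a chaperone gene that is strongly interferon-inducible, measured 29.2, 40.8 and 17.7 FPKM in the controls and 51.4, 55.8 and 38.9 FPKM in DSS. Its log2 change of 0.78 ± 0.30 SE was the second highest of the members, but 1 control lay above the lowest DSS library (limma adjusted p = 0.442). Sp100, a nuclear body gene, measured 24.2 ± 3.29 and 31.3 ± 4.39 FPKM, and Trim30a measured 13.4 ± 3.28 and 14.6 ± 0.594 FPKM. Lgals3bp, a secreted galectin-binding protein gene, measured 10.6, 11.6 and 11 FPKM in the controls and 4.35, 7.98 and 11.9 FPKM in DSS. Ifi44 did not meet the level for testing and measured 0.359 to 0.828 FPKM.

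**Figure D3:**
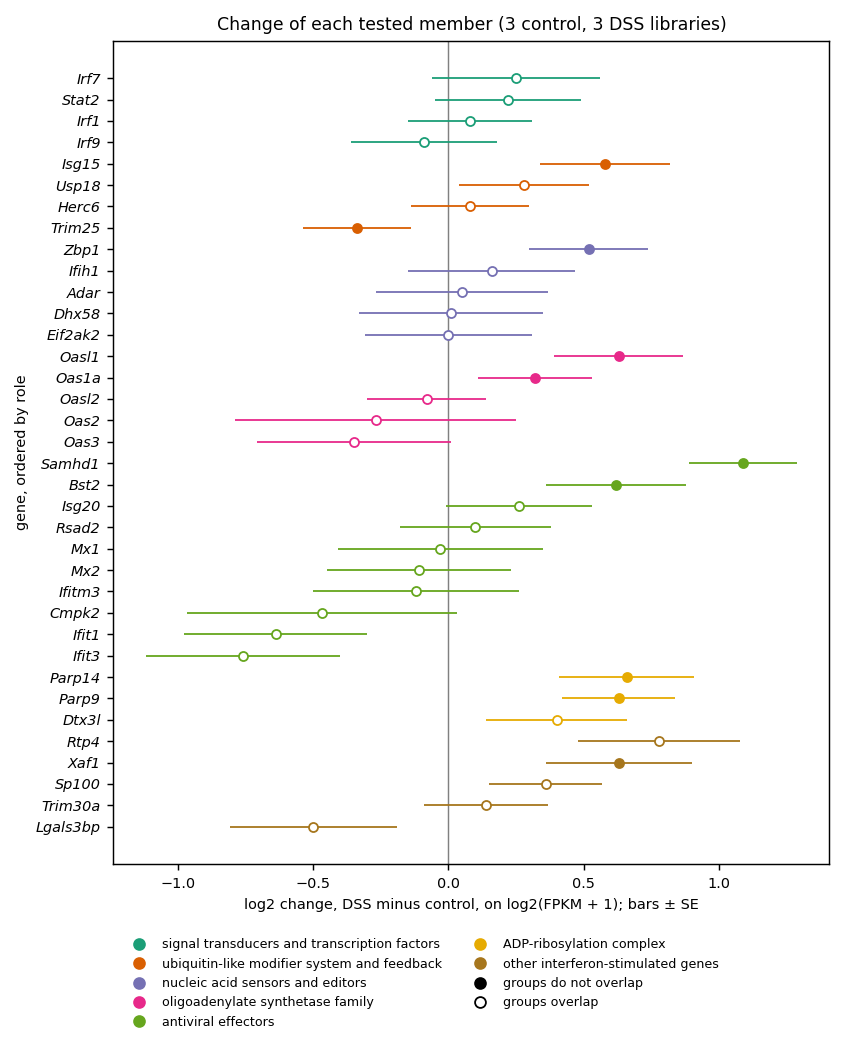
Points give the log2 change, DSS minus control, of each tested member with bars of ± 1 SE, coloured by role; filled points mark members whose groups do not overlap. Samhd1 lies furthest to the right at 1.09 and Ifit3 furthest to the left at −0.76, and no member passed an adjusted p of 0.05.

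Members with and without the promoter letters were found among those with separate groups. Of the 12 members with an ISRE core in the window, 3 (Isg15, Bst2 and Oas1a) had every DSS library above every control, and so did 3 of the 17 members without it, against 6.35% of all tested genes. The 17 include Ifit2 and Ifi44, which were not tested. Zbp1, Parp9 and Parp14, whose groups were also apart, had no promoter entry and are in neither count. The form with CT stood in Bst2 and Oas1a, whose groups were apart, in Stat2, whose groups overlapped, and in Ifit1 and Ifit3, whose means were lower in DSS. Samhd1 had a GAS palindrome and no ISRE core in this window.

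DSS replicate 1 took one extreme or the other for many members, at shares close to those over all tested genes. It was the highest library for 8 of the 36 and the lowest for 13, against 18.9% and 37.1% of all tested genes. DSS replicate 3 was the highest library for 15 of the 36, near the 41.6% of all genes. Control replicate 3 was the lowest for 14 of the 36, well above the 5.92% of all genes. The gene length behind the FPKM values, recovered from the size of 1 fragment in each gene, was set beside the values of DSS replicate 1. The 4 shortest tested members, Ifitm3, Isg15, Bst2 and Isg20 (685 to 1098 bases), exceeded the mean of DSS replicates 2 and 3 there by 1.24, 0.72, 0.72 and 0.73 on the log2 scale. Of the other 32 tested members, 8 were higher in DSS replicate 1 than in that mean. The next in length, Ifit1, Oasl2 and Ifit3 (1343 to 1765 bases), differed from that mean by −1.0, −0.32 and −1.13. Over all genes the median of this difference was 0.18 in the shortest quartile of lengths and −0.32, −0.50 and −0.47 in the next 3. Across the 36 members the correlation with log2 length was −0.44 (Pearson) and −0.24 (Spearman), and across all 12187 genes −0.15 and −0.24. The members share the same libraries, so these are descriptions. The part of length in the values of Isg15, Bst2 and Isg20 was not tested.

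**Figure D4:**
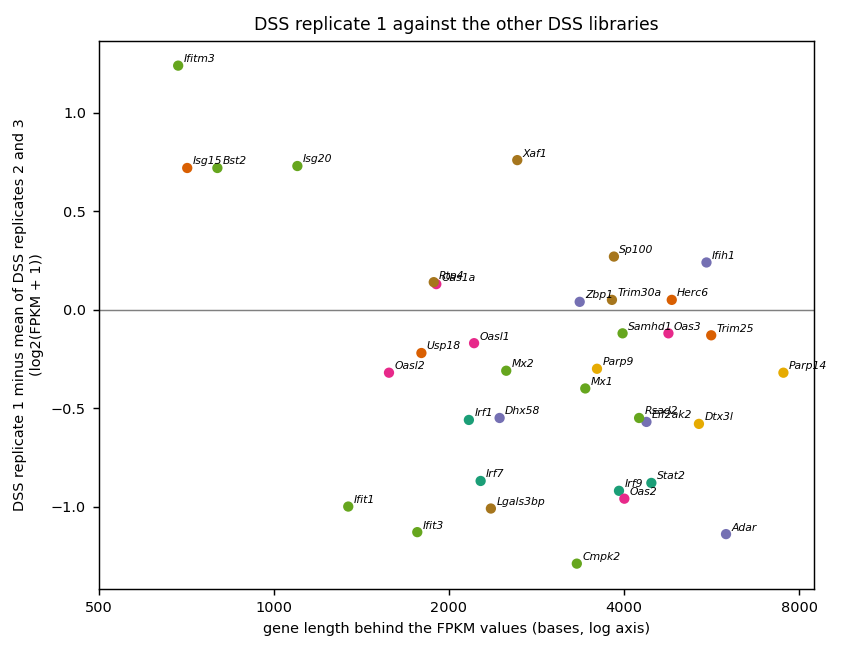
For each of the 36 members, the gene length behind its FPKM values (log axis, bases) is plotted against the value of DSS replicate 1 minus the mean of DSS replicates 2 and 3 on log2(FPKM + 1). The 4 shortest genes lie between 0.72 and 1.24, and most of the others lie below 0.

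Without DSS replicate 1, the members lay higher in DSS as a group than in the full comparison, and so did all genes. The median log2 change was 0.24 for the members and 0.12 for all genes, against 0.12 and 0.03 in the full comparison. Every remaining DSS library lay above every control for 16 of 36 members, against 16.9% of all genes. Stat2, Irf9, Irf1, Usp18, Adar, Rsad2 and Dtx3l joined the 9 listed above. Without control replicate 3 the members' median log2 change, 0.04, lay under that of all genes, 0.07. Without both replicates 3, which had the highest olfactory receptor values, separate groups were found in both directions. Every DSS library then lay above every control for 11 members and below for 10, against 21.4% and 23.2% of all genes, and the median was −0.05. In each alternative run the log2 changes of Samhd1, Parp9, Parp14, Oasl1, Bst2, Isg15, Zbp1 and Xaf1 were above 0. So were those of Oas1a, Rtp4, Sp100, Dtx3l, Usp18 and Isg20. Those of Trim25, Ifit1, Ifit3, Cmpk2, Lgals3bp and Oas3 were below 0 in each alternative run that tested them. Apart from Samhd1 without DSS replicate 1, none of these passed.

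Upstream of the members, interferon ligand transcripts rested on few fragments. Of 20 type I and type III interferon genes, 5 met the level for testing, 0 passed (smallest limma adjusted p 0.649, 0 at an unadjusted p under 0.05), and 18 had 0 fragments in at least 1 library. Ifnb1 measured 0.684, 0.902 and 0.416 FPKM in the controls and 1.69, 0.972 and 1.58 FPKM in DSS, on 4 to 19 fragments, with groups that did not overlap. Ifng, the type II interferon gene, was clearly expressed, at 32.8, 26.3 and 33.7 FPKM in the controls and 69.7, 34.1 and 29.4 FPKM in DSS. The receptor genes Ifnar1 and Ifnar2 measured 36.6 ± 3.14 and 28.3 ± 5.72 FPKM, and 30.3 ± 2.44 and 32.5 ± 6.08 FPKM. Ifngr2, a chain of the interferon gamma receptor, measured 32.4, 34.3 and 35.4 FPKM in the controls and 13.1, 20.8 and 16.8 FPKM in DSS, with groups well apart (limma adjusted p = 0.136). Ifngr1, the other chain, also had every DSS library below every control. Of Ifng and these chains, 2 of 3 genes thus lay below, against 9.6% of all tested genes.

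The receptor kinases Jak1, Jak2 and Tyk2 did not pass the test. Jak2, a kinase of the interferon gamma receptor, measured 103 ± 5.38 and 62.9 ± 2.42 FPKM, lower in 3 of 3 DSS libraries (limma adjusted p = 0.196). The type I receptor kinases Jak1 and Tyk2 overlapped, with log2 changes of −0.21 and 0.36. Of 10 negative regulators 0 passed by limma, also at an unadjusted p under 0.05, and Socs1 measured 59.1 ± 7.17 and 53.5 ± 12.5 FPKM. Of 13 tested upstream sensors, adaptors and kinases 0 passed by limma. At an unadjusted p under 0.05, 3 were higher, against 3.57% of all tested genes. A higher mean log2 value in DSS was found in 7 and a lower one in 6, with a median log2 change of 0.02. The adaptor gene Sting1, Ifi203, the nuclease gene Trex1 and the interferon-inducing factor gene Irf3 had every DSS library above every control. These were 4 of the 13, against 6.35% of all tested genes. Ifi203 measured 19.4 ± 3.36 and 35.5 ± 5.39 FPKM (limma adjusted p = 0.196).

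A further list of 42 interferon-stimulated genes outside the members was set beside them. Of its 35 tested genes 0 passed by limma, 6 were higher and 0 lower at an unadjusted p under 0.05, 24 had a higher mean log2 value in DSS, and the median log2 change was 0.20. Every DSS library lay above every control for 9 of them, and for 0 it lay below. The shares over all tested genes, which also apply to the GTPases, were 6.35% above, 9.6% below and, at an unadjusted p under 0.05, 3.57% higher and 5.42% lower. Ifitm1 measured 7.94 ± 2.80 and 17.6 ± 6.24 FPKM, and Slfn2 measured 61.3 ± 1.02 and 103 ± 16.0 FPKM. The interferon-inducible GTPases, left out of the members, had a median log2 change of 0.81 over 16 genes. Every DSS library lay above every control for 8 of the 16, with Iigp1 at 14.3 ± 6.02 and 40.3 ± 1.32 FPKM (limma adjusted p = 0.0912). By limma 0 passed, and 10 were higher at an unadjusted p under 0.05. Whether the GTPases and the members differ was not tested.

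**Figure D5:**
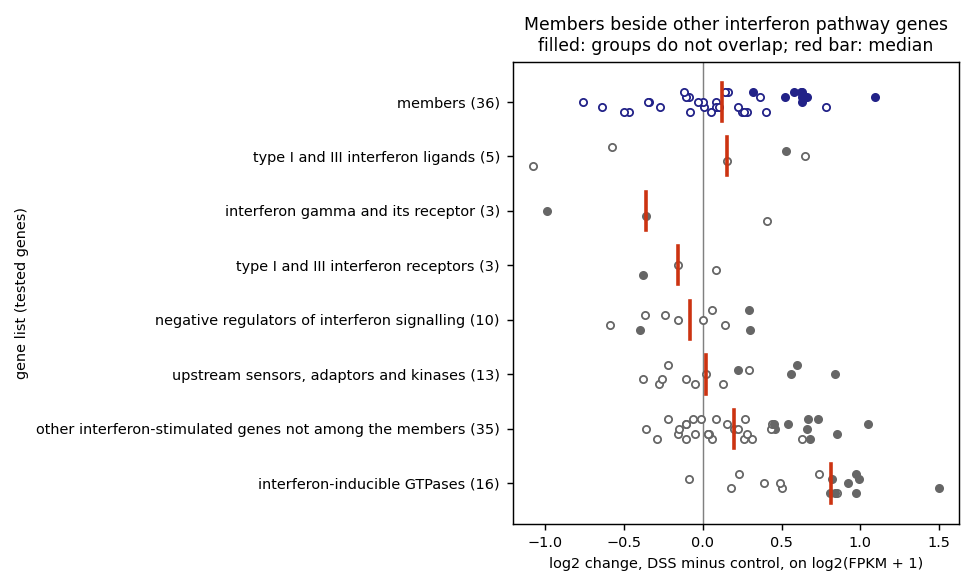
Each point is the log2 change, DSS minus control, of 1 tested gene, in the members and in 7 other lists of the interferon pathway, with the number of tested genes in brackets; filled points mark groups that do not overlap and red bars mark list medians. The members centre on 0.12 and the GTPases on 0.81.

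Transcripts of other cell types differed between the groups beside these values. The summed level of 12 neutrophil markers was 3.11 to 8.54 FPKM in the controls and 69.0 to 113 FPKM in DSS, mostly from S100a8, S100a9 and Retnlg, with Ly6g at 0 to 0.414 FPKM. That of 12 epithelial markers was 20.6 to 40 and 53.6 to 58.5 FPKM, and that of 6 B and plasma cell markers 23.2 to 35 and 42.6 to 189 FPKM. That of 10 plasmacytoid dendritic cell markers, a cell type known for type I interferon production, was 25 to 26.1 and 31.8 to 34.4 FPKM, with the defining gene Siglech at 0 to 1.94 FPKM. Of its 6 tested genes 3 had a higher and 3 a lower mean log2 value in DSS, and all overlapped. That of 9 conventional dendritic cell markers was 372 to 445 and 593 to 802 FPKM, mostly Cd74 and H2-Ab1, with Clec9a at 0 to 0.782 FPKM. Its 5 tested genes went both ways: every DSS library lay above every control for Cd74 and H2-Ab1, and below for Xcr1 and Zbtb46, with log2 changes of −1.38 and −1.29. The sums for monocytes and macrophages, T cells, NK cells and ILC1s, ILC3s, and stromal cells overlapped between the groups. Of the 7 tested neutrophil markers 3 passed, all higher in DSS (smallest limma adjusted p = 8.45e-05), against 0.0738% of all tested genes. A lower mean log2 value in DSS was found in 1 of the 7. Every DSS library lay above every control for 4 of these 7, against 6.35% of all tested genes. The same held for 4 of 7 tested epithelial markers and 2 of 3 tested B and plasma cell markers. Of the 5 tested monocyte and macrophage markers, 4 had a higher mean log2 value in DSS and 1 a lower one. In 2 of these 5 every DSS library lay above every control, against 6.35% of all tested genes. In 1 of 6 tested ILC3 markers and 1 of 6 tested stromal markers every DSS library lay below, against 9.6%. The part of these cells in the values of the members was not tested. In such bulk samples, fewer cells of a type and less RNA per cell cannot be told apart.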

How the data were processed

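RNA was extracted with TRIzol, amplified as full-length cDNA with a SMART-Seq HT kit and made into paired-end Nextera XT libraries, per the labels' protocols. Per the submitters' processing notes, the tools included cutadapt 1.9 and HISAT2 2.2.1, with build mm10. How fragments were counted, and with which annotation and lengths, is not given in the sources used here. FPKM values were deposited by the authors as 1 table with 1 column per library, and columns were matched to samples by title.

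Within each gene the deposited values are whole multiples of a step, which gave whole fragments (tolerance 0.001) for 22701 of 22701 genes above 0, or 100.0%, and hence depth and gene length. A gene above 0 in 1 library meets this whatever its value.

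Groups were compared on log2(FPKM + 1) with limma 3.58.1 in R 4.3.3 (lmFit, then eBayes with trend; two-sided), for genes with a mean of at least 1 FPKM, with Benjamini-Hochberg adjustment over all 12187 genes and a threshold of 0.05. The test was also run on simulated data, in which libraries differed only in depth, random scatter and set changes in DSS. That run does not cover the library differences described above. The members and gene lists were chosen with earlier results of these data known. Library values were given for the 6 tested members with the smallest p in each direction and for 10 set members (Irf1, Irf7, Irf9, Stat2, Isg15, Ifit1, Ifit3, Mx1, Bst2 and Ifitm3). Those of other members were added after their values were seen. Pathway genes were named from the 4 with the smallest p in each list and from a set of pathway genes, and some only for their groups not overlapping. One further pathway gene is not reported here. Coordinates are 1-based, from GENCODE M21 (GRCm38, the same as mm10). Figures used matplotlib 3.10.9, and tables Python 3.11.15 with pandas 2.3.3.

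Deviations from the group means correlated between libraries of equal number at 0.189, 0.262 and 0.545 for replicates 1, 2 and 3, and by a rule of over 0.1 for each the numbers count as pairing. The labels do not state it, and the rule does not single out equal numbers. The deviations of control replicate 1 had a higher correlation, 0.345, with those of DSS replicate 2. Those of control replicate 2 correlated at 0.101 with those of DSS replicate 1. The main test has no block.

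Alternatives were pseudocounts of 0.1 and 5, no filter, a filter at 5 FPKM, median-of-ratios scaling, quantile normalization, no trend, the replicate block and leaving out each library; voom and leaving out both replicates 3 were added after seeing the data.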

Additional observations from a re-analysis of the deposited data

How the results depend on the processing

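With the replicate block 22 genes and 0 members passed, and the block changed no call of a member. Of 12187 genes, 27 passed in the full comparison; 9 passed after median-of-ratios scaling, 4 with no mean-variance trend and 5 without both replicates 3. Leaving out 1 library gave 4 to 413 genes, with 413 without DSS replicate 1 and 4, 5, 6 and 7 without control replicates 1, 2 and 3 and DSS replicate 2, and 0 to 1 members. Members with groups apart numbered 10, against 5 after median-of-ratios scaling, 21 without both replicates 3 and 12 to 17 with 1 library left out. The share of all genes with groups apart moved too, at 16%, 14.1%, 44.6% and, with 1 library left out, 20.3% to 31.5%. The members' median log2 change was −0.05 without both replicates 3 and 0.02 to 0.24 with 1 library left out. For all genes it was −0.03 and −0.11 to 0.12, and without control replicate 3 the members, at 0.04, lay under all genes, at 0.07. With a filter at 5 FPKM the median was 0.26 for 27 members and −0.08 for all genes. Of 36 members, 20 kept their sign in every alternative. Without both replicates 3 the log2 change was −0.05 for Stat2, Irf1, Herc6 and Trim30a, −0.11 for Irf7, −0.08 for Ifih1, −0.42 for Dhx58, −0.18 for Adar and −0.23 for Rsad2. Dhx58 was at −0.02 after median-of-ratios scaling and −0.11 with voom, and Eif2ak2 at 0.01 with a pseudocount of 5. Quantile normalization gave 0.05 for Irf9, 0.00 for Irf1 and 0.02 for Rigi. Leaving out 1 library gave −0.17 to 0.43 for Adar, −0.30 to 0.24 for Dhx58, −0.29 to 0.18 for Eif2ak2, −0.01 to 0.17 for Herc6, −0.04 to 0.43 for Ifih1, −0.53 to 0.22 for Ifitm3 and −0.02 to 0.26 for Irf1. It gave −0.24 to 0.22 for Irf9, −0.19 to 0.10 for Mx1, −0.39 to 0.07 for Mx2, −0.61 to 0.05 for Oas2, −0.19 to 0.03 for Oasl2, −0.34 to 0.23 for Rigi, −0.14 to 0.29 for Rsad2 and −0.04 to 0.30 for Trim30a. The cause was not tested. Depth limits Ifit2 and Ifi44, with 16 to 124 and 20 to 50 fragments per library.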
